A study of Homo sapiens with 8 samples.

Results

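Interferon-stimulated and nucleic-acid sensing genes were followed as a group of 43 named genes, all of them found among the 19952 gene symbols of the RNA-seq files. The members were taken by symbol from a list drawn up with earlier results of these data known. RNA was sequenced from 8 libraries of 2 human uveal melanoma cell lines, 92.1 and MEL290, in which the cytidine deaminase APOBEC3B (A3B) was lowered or raised. The 92.1 libraries came from cells with shA3B, a short hairpin RNA against A3B, and from shCtrl cells, which the study describes as carrying an empty vector. The MEL290 libraries came from cells with A3B OE, that is A3B overexpression, and from NC cells, a control that the labels do not describe further. Each of the 4 groups had 2 libraries. Hairpins were carried by lentiviral pGIPZ-TurboGFP-puro and A3B by lentiviral pHAGE-puro, and infected cells were selected with puromycin. Whether NC cells carried an empty vector is not stated. Which hairpin was sequenced, and whether the cultures were pools or single clones, is not given in the sources used here. All cells were grown in RPMI1640 medium with fetal bovine serum.

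Interferon-stimulated genes are switched on when a cell senses foreign or misplaced nucleic acid. The DNA sensor cGAS makes a cyclic dinucleotide that activates STING, which recruits the kinase TBK1 to phosphorylate the transcription factor IRF3, while RNA sensors such as MDA5 (IFIH1) and RIG-I signal through MAVS to the same kinase. Interferon that is then secreted acts through JAK kinases on a complex that includes STAT2 and IRF9, which binds the interferon-stimulated response element and turns on antiviral effectors such as the IFIT, OAS and ISG15 genes.

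Expression is given as FPKM, fragments per kilobase of transcript scaled to the size of the library, which is a value per length and may be compared between genes. Differences are on the scale of log2(FPKM + 1), which understates the change of genes near or below 1 FPKM. A gene was tested in a line if it reached 1 FPKM in at least 2 of its 4 libraries, and was called when limma's adjusted p (Benjamini-Hochberg over all genes tested) was under 0.05. Nothing in the sources used here says that the 2 libraries of a group came from separate cultures, so the p-values measure only the spread between these libraries. In bulk RNA, more cells expressing a gene and more RNA per cell cannot be told apart.

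The targeted gene followed the labels. A3B read 35.9 and 32.3 FPKM in shCtrl against 1.98 and 2.37 in shA3B, and 2.67 and 2.19 in NC against 28.4 and 27.5 in A3B OE. Rough depth was 25700000 to 32400000 fragments in 92.1 and 17800000 to 28200000 in MEL290, where the NC libraries, at 17800000 and 20400000, were the shallowest, and the part of depth in the MEL290 results was not tested. The 7 melanocyte markers summed to 7110 to 8710 FPKM in the 92.1 libraries but to 15.2 to 20.7 in the MEL290 libraries, where TYR was listed at 0 throughout and SOX10 and MLANA did not pass 0.168. The labels call both lines uveal melanoma cells, and in MEL290 most of the defining melanocyte genes were thus at or near 0. The exceptions were MITF, at 13.7 to 19.6 FPKM in MEL290 and most of that sum, and PMEL, at 0.836 to 1.31. Of the leukocyte genes CD3E was listed at 0, LYZ was at or near 0, and PTPRC did not pass 0.475 FPKM in any library. CD68, on the same list, was at 14.5 to 35.0 FPKM over the 8 libraries.

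The members ranged from listed at 0 to abundant. In every library 21 members reached 1 FPKM, 8 stayed under 1 FPKM in all 8 libraries, and RSAD2 (viperin), XAF1 and CMPK2 were listed at 0 throughout. IFITM3 and IFITM2, membrane proteins that block virus entry, were the most abundant, at 185 to 253 and 99.5 to 155 FPKM, and their near-identical sequences leave the split of reads between them uncertain. ADAR, the RNA editing enzyme, was at 39.7 to 55.3 FPKM. CGAS, the DNA sensor itself, did not pass 0.202 FPKM in any library, while STING1, TBK1 and IRF3 downstream of it were well above 1 FPKM in all 8. OAS1, OAS2 and OASL, of the family that makes the activator of RNase L, and MX2, a dynamin-like GTPase, did not pass 0.399 FPKM, so of these antiviral families only OAS3 could be compared.

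**Figure D1:**
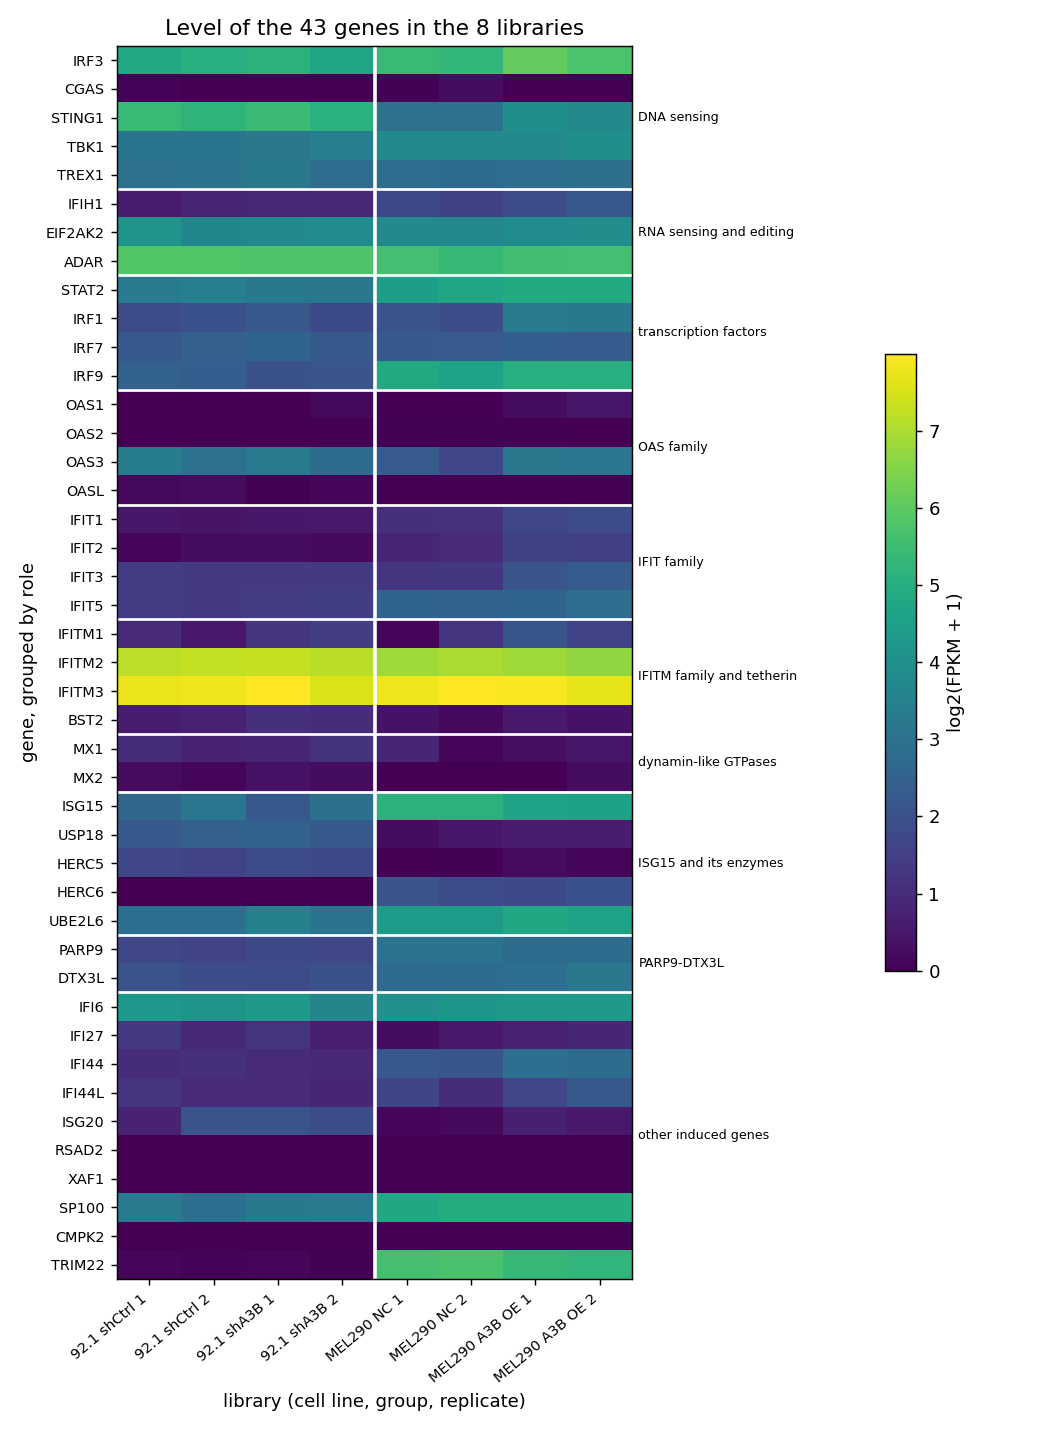
Level of each of the 43 members (rows, ordered by role) in each of the 8 libraries (columns), coloured by log2(FPKM + 1). TRIM22, HERC6 and ISG15 are brighter in the 4 MEL290 libraries, STING1 and HERC5 are brighter in the 4 libraries of 92.1, and RSAD2, XAF1 and CMPK2 are at 0 in all.

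The first question was which members moved when A3B was raised in MEL290. Of the 29 members tested there, 8 were called higher with A3B OE, which is 27.6%, against 10.3% of all 11611 genes tested. A further 2 were called lower, 6.9% of members against 7.49% of all genes. The genes that rose were IRF1, OAS3, IFIT3, STING1, IFI44, IFIT1, IFIT2 and IRF3, and those that fell were ISG15 and TRIM22. IFIT2 passed the filter only through the A3B OE libraries, where it was higher. With 1 FPKM required in every library, 7 of 27 members tested were called higher. The median difference of the 29 was 0.24 against 0.0 over all genes, with a range of -0.54 to 1.29. In 19 of the 29 both A3B OE libraries were above both NC libraries, 65.5% against 31.5% of all genes, and in 4 both were below, 13.8% against 29.7%. The count rests on few libraries, since 3 members were called higher without either A3B OE library. With no filter on low values 3 were called higher as well, IRF1, STING1 and IFIT3. IRF1 and STING1 passed in each of the 4 fits with a library left out.

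**Figure D2:**
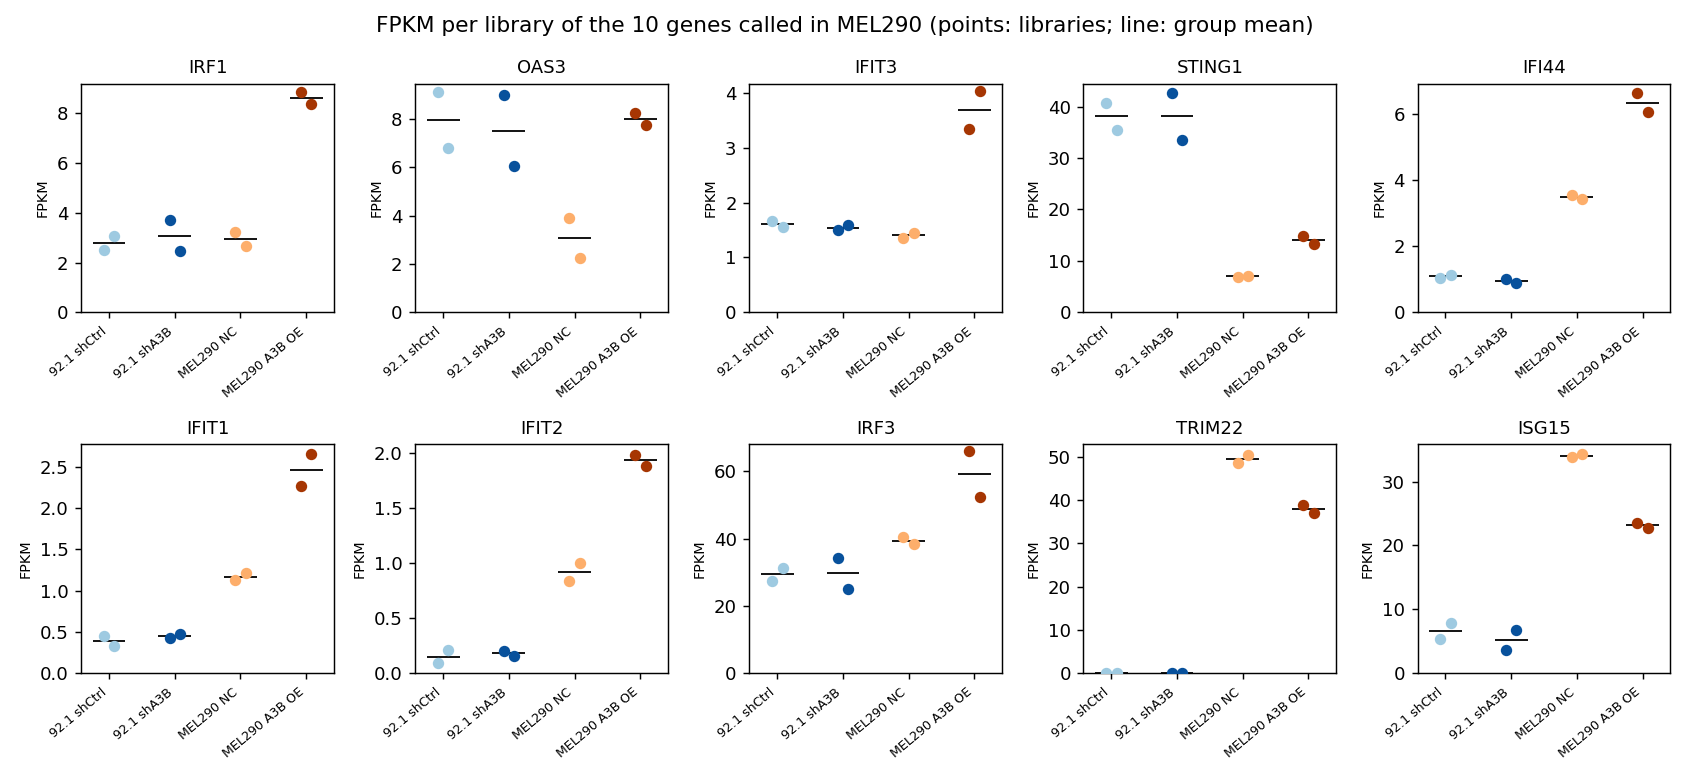
FPKM of the 10 members called in MEL290 in each library of the 4 groups, with points for libraries and a bar for the mean of 2. In MEL290 the A3B OE points of the 8 higher members lie above both NC points and those of ISG15 and TRIM22 below them, while in 92.1 the shCtrl and shA3B points of STING1, IRF1 and IFIT3 overlap.

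Among the genes of DNA sensing, STING1 and IRF3 rose and the kinase between them did not pass the test. STING1, the adaptor in the endoplasmic reticulum membrane (chr5:139475533-139482935, minus strand, GRCh38), read 6.94 and 7.03 FPKM in NC and 14.8 and 13.3 in A3B OE. The groups were far apart and replicates lay close together, with a difference of 0.92 on the log2 scale (SE 0.11, adjusted p = 0.0058). IRF3, the transcription factor phosphorylated by TBK1 (chr19:49659569-49665875, minus strand), was at 40.5 and 38.3 FPKM in NC and at 66.0 and 52.5 in A3B OE, a difference of 0.57 (SE 0.12, adjusted p = 0.026). The groups did not overlap, but the A3B OE libraries stood apart from each other. Without A3B OE replicate 1 the difference was 0.41 with an adjusted p of 0.068, and in the fit of all 8 libraries the adjusted p was 0.054, so the call on IRF3 is a marginal one. IRF3 lies on the long arm of chromosome 19, where the 453 tested genes starting after position 28000000 had a median difference of 0.24, 79.7% of them were higher in A3B OE and 72 were at or above the change of IRF3. The part of this regional shift in the result for IRF3 was not tested. TBK1 was at 13.2 and 12.7 FPKM in NC and 13.3 and 14.9 in A3B OE, and TREX1, the exonuclease that clears cytosolic DNA, was at 6.47 and 5.89 against 6.44 and 6.8. Neither was called, at 0.11 (SE 0.11) and 0.09 (SE 0.12).

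Of the 3 members grouped under RNA sensing and editing, limma called 0 in MEL290. The grouping is by role only, since IRF3 also lies downstream of the RNA sensors, and OAS3, which activates RNase L, is given below. IFIH1, which encodes MDA5, read 2.33 and 1.92 FPKM in NC and 2.69 and 3.58 in A3B OE, with non-overlapping groups and a difference of 0.4 that did not pass (SE 0.17, adjusted p = 0.17). EIF2AK2, the kinase PKR that halts translation on double-stranded RNA, was at 12.9 and 12.4 against 13.8 and 14.2. ADAR was at 47.3 and 39.7 against 46.6 and 47.6, and its groups overlapped.

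IRF1 had the largest difference of any tested member in MEL290. This transcription factor, known for its induction by interferon gamma and for turning on antigen presentation genes (chr5:132440440-132508719, minus strand), read 3.22 and 2.67 FPKM in NC and 8.88 and 8.4 in A3B OE. The difference was 1.29 (SE 0.14, adjusted p = 0.0037), and the groups did not overlap. The partners of the interferon-activated complex did not pass the test. STAT2 was at 21.0 and 24.8 against 28.5 and 28.2 FPKM (0.3, SE 0.11, adjusted p = 0.11), and IRF9, its DNA-binding partner, at 28.2 and 23.8 against 31.4 and 32.0 (0.28, SE 0.11, adjusted p = 0.13). IRF7, which amplifies interferon alpha transcription, was at 3.72 and 3.93 against 4.23 and 4.02 and was not called.

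The IFIT genes, whose products bind viral RNA and block its translation, lie side by side on chromosome 10, between 89283694 and 89421605. IFIT3 rose from 1.36 and 1.45 FPKM in NC to 3.35 and 4.04 in A3B OE, a difference of 0.96 (SE 0.15, adjusted p = 0.011) that lost its call without A3B OE replicate 2 (0.85, adjusted p = 0.066). IFIT1 read 1.13 and 1.21 in NC and 2.27 and 2.66 in A3B OE (0.67, SE 0.15, adjusted p = 0.03). IFIT2 read 0.83 and 0.997 in NC and 1.98 and 1.88 in A3B OE (0.61, SE 0.15, adjusted p = 0.039). All 3 genes were low, with no overlap between groups, and IFIT2 passed the filter on low values only through the A3B OE libraries. IFIT1 and IFIT2 lost their calls when NC replicate 1 (adjusted p = 0.051 and 0.1), A3B OE replicate 1 (0.079 and 0.13) or A3B OE replicate 2 (0.13 and 0.12) was left out. IFIT5, the neighbour that binds uncapped RNA, was at 4.98 and 4.88 in NC and 4.92 and 6.3 in A3B OE, with overlapping groups and no call (0.15, SE 0.15).

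The promoters of some members carry the letters of the interferon-stimulated response element. A few matches are shown because they occur in members that rose, in a member that fell and in a member that was not called. The RefSeq promoter table (GRCh38.p14, 250 bases before to 50 after the start) had an entry for 32 of the 43 members. The letters searched were GAAA, then 2 bases of any kind (NN), then GAAA again, on both strands, so that a match on the other strand reads TTTC, NN, TTTC. They occurred in 18 of these 32, or 56.2%, against 3.22% of 15085 promoters. Of the 18, 13 held more than 1 match, and matches may overlap, as the pair of ISG15 does. The 30-base windows below are written 5′ to 3′ along the gene, with the matching letters in capitals.
ISG15: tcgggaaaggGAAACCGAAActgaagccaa
IFIT1: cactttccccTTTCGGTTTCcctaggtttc
IFIT3: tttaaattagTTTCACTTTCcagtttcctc
IFIT5: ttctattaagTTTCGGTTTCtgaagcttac
IFI44: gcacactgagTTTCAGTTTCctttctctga
OAS3: agccgggcggGAAAACGAAAccagaaatcc
The windows lie at chr1:1013380-1013409 for ISG15, chr10:89392510-89392539 for IFIT1, chr10:89327865-89327894 for IFIT3, chr10:89414513-89414542 for IFIT5, chr1:78649761-78649790 for IFI44 and chr12:112938452-112938481 for OAS3, all on the plus strand. Of the 8 members that rose in MEL290, 5 had an entry and 4 of these held the letters, the exception being IRF1. Of the 19 tested members that were not called, 17 had an entry and 8 held the letters. ISG15, which fell, held them as well, so the letters occurred in members of each kind. A match is a description of the sequence and not of a bound site.

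OAS3 and IFI44 also rose, each from a low level. OAS3, the long form of oligoadenylate synthetase that activates RNase L (chr12:112938051-112976460), was at 3.91 and 2.23 FPKM in NC and 8.24 and 7.76 in A3B OE, a difference of 1.18 (SE 0.21, adjusted p = 0.017). IFI44, an interferon-induced antiviral protein (chr1:78649796-78664078), was at 3.55 and 3.42 in NC and 6.63 and 6.06 in A3B OE, a difference of 0.71 (SE 0.13, adjusted p = 0.016). In both, the groups were clearly apart. Both calls were lost when either A3B OE library was left out. Leaving out replicate 1 gave 1.14 (adjusted p = 0.096) for OAS3 and 0.65 (adjusted p = 0.088) for IFI44, and leaving out replicate 2 gave 1.21 (adjusted p = 0.09) and 0.77 (adjusted p = 0.069). The neighbouring IFI44L read 2.21 and 1.03 in NC and 2.26 and 3.85 in A3B OE, where the spread within groups was as wide as the difference (0.64, SE 0.29, adjusted p = 0.18). IFI6, a mitochondrial antiviral protein, was at 15.4 and 17.9 against 18.7 and 18.8 and was not called.

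ISG15 and TRIM22 went the other way. ISG15, the ubiquitin-like protein that is attached to other proteins during an interferon response (chr1:1001138-1014540), was at 33.8 and 34.3 FPKM in NC and at 23.5 and 22.8 in A3B OE. The replicates were tight and the groups apart, at -0.54 (SE 0.08, adjusted p = 0.01). With A3B OE replicate 2 left out the difference was -0.52 and the adjusted p 0.052, and in the fit of all 8 libraries the adjusted p was 0.19. UBE2L6, the enzyme that conjugates ISG15, was at 20.1 and 20.3 in NC and 26.5 and 23.1 in A3B OE (0.28, SE 0.1, adjusted p = 0.12). HERC6, a HERC-family ligase, was at 3.35 and 2.53 against 2.4 and 3.01, while HERC5, the ligase for ISG15, and USP18, which removes it, were under the filter, at most 0.177 and 0.574 FPKM. TRIM22, an antiviral ubiquitin ligase (chr11:5689610-5737089), was at 48.6 and 50.4 in NC and 38.8 and 37.1 in A3B OE, at -0.37 (SE 0.08, adjusted p = 0.025). Its call was lost in each of the 4 fits with a library left out, at adjusted p = 0.053 and 0.096 for NC replicates 1 and 2 and at 0.063 and 0.088 for A3B OE replicates 1 and 2.

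The other members in MEL290 did not pass. IFITM1 had a difference about as large as that of OAS3, but its NC libraries read 0.078 and 1.35 FPKM against 3.37 and 2.04 in A3B OE. Libraries spread within both groups, and IFITM1 was not called (1.19, SE 0.38, adjusted p = 0.084). IFITM2 and IFITM3 had overlapping or nearly touching groups, at 115 and 124 against 114 and 99.5 FPKM and at 222 and 253 against 241 and 205. SP100, a nuclear body protein, was at 26.3 and 29.7 against 29.6 and 29.9. PARP9 was at 7.21 and 7.19 in NC and 6.07 and 6.1 in A3B OE (-0.21, SE 0.12), and DTX3L, its partner ubiquitin ligase, at 5.88 and 6.11 against 6.63 and 7.95 (0.24, SE 0.13). These 2 genes start head to head on chromosome 3 with overlapping annotated spans, and whether strand was used in counting is not given in the sources used here, so reads in the overlap cannot be assigned with certainty. The 14 members not tested in MEL290 include BST2 (tetherin), ISG20, IFI27, MX1 and CGAS, none of which passed 0.822 FPKM there.

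Markers of another cell type moved in MEL290 as well. Of the 5 epithelial markers, the keratins KRT8 and KRT18 were called lower in A3B OE (-0.4 and -0.66), and the summed level of the 5 went from 2550 to 2580 FPKM in NC to 1680 to 1900 in A3B OE. EPCAM, a defining epithelial gene, was at or near 0. CDH1, not tested, read 0.18 and 0.393 FPKM in NC and 0.301 and 2.14 in A3B OE. KRT19, also not tested, read 0.918 and 0.13 against 0.586 and 0.2. The 7 endothelial and fibroblast markers summed to 44 to 45.4 FPKM in NC and 47.4 to 60.7 in A3B OE, the 7 leukocyte markers, mostly CD68, to 26.2 to 29 and 28.3 to 31.8, and limma called 0 genes of either list, also at an unadjusted p under 0.05. Their part in the members' changes was not tested.

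The second question was whether lowering A3B in 92.1 moved the members. By limma 0 of 28 tested members were called, against 0.00862% of 11605 genes tested, which is 1 gene, A3B itself. The study, with another test, reported more genes changed in 92.1. With so few calls among all genes, the count of 0 does not show that the members were unchanged. At an unadjusted p under 0.05 there were 2 members, IFITM1 and IRF9, 7.14% against 2.9% of all genes. The median difference was -0.01, or 0.14 with shA3B replicate 2 left out, and the range -0.4 to 0.59. Members with non-overlapping groups numbered 7 of 28 higher, against 15.3% of all genes, and 4 lower, 14.3% against 13.3%. IFITM1 was at 0.966 and 0.445 FPKM in shCtrl and at 1.36 and 1.74 in shA3B (0.59, SE 0.23, unadjusted p = 0.0238), and like BST2 and IFI44 it passed the filter through 1 group only. IRF9 was at 4.68 and 4.22 in shCtrl and at 2.92 and 3.35 in shA3B (-0.4, SE 0.17, unadjusted p = 0.04). In each of these the groups were apart, yet the adjusted p was 1.0.

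Of the 8 genes that rose in MEL290, 6 could be tested in 92.1, with differences from -0.1 to 0.1. STING1 read 40.8 and 35.5 FPKM in shCtrl and 42.7 and 33.6 in shA3B, so that the replicates differed more than the groups. IRF1 was at 2.51 and 3.06 against 3.71 and 2.46, IRF3 at 27.5 and 31.2 against 34.3 and 25.1, and IFIT3 at 1.66 and 1.55 against 1.5 and 1.59. The groups overlapped for each of them, with differences of -0.01 (SE 0.15) for STING1, 0.1 (SE 0.2) for IRF1, 0.01 (SE 0.17) for IRF3 and -0.04 (SE 0.19) for IFIT3. OAS3 was at 9.13 and 6.82 in shCtrl and 9.02 and 6.04 in shA3B. ISG15 spread widely, from 5.26 and 7.88 in shCtrl to 3.6 and 6.67 in shA3B (-0.33, SE 0.25). IFIT1 and IFIT2 did not pass 0.471 FPKM in 92.1 and were not tested.

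The other members tested in 92.1 were not called either. UBE2L6 was at 6.49 and 6.55 FPKM in shCtrl and at 10.3 and 7.43 in shA3B (0.38, SE 0.18), and BST2, which tethers budding virus to the cell surface, was at 0.532 and 0.656 against 1.13 and 1.03 (0.38, SE 0.21). In both the shA3B libraries were above the shCtrl libraries. ISG20, an antiviral exonuclease, had 1 low library, at 0.701 and 3.15 in shCtrl against 3.25 and 2.69 in shA3B (0.58, SE 0.33). TBK1 was at 7.62 and 7.66 against 8.1 and 9.61, and STAT2 at 8.63 and 9.72 against 8.48 and 8.18, each with groups that were apart by less than 1 FPKM. USP18 read 3.66 and 4.43 against 4.56 and 3.85, and HERC5 2.22 and 2.07 against 2.56 and 2.31. IFI6 was at 18.2 and 16.5 against 19.1 and 11.5, where the shA3B libraries lay on either side of the shCtrl libraries. The same held for IFITM3, at 215 and 218 against 249 and 185, and for TREX1, at 7.04 and 7.51 against 8.33 and 6.25. IRF7 and IFITM2 had overlapping groups, at 3.6 and 4.44 against 4.9 and 3.79 and at 145 and 152 against 155 and 141. The remaining members tested, IFI27, IFI44, IFIT5, SP100, PARP9, DTX3L, EIF2AK2 and ADAR, had differences between -0.17 and 0.16.

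**Figure D3:**
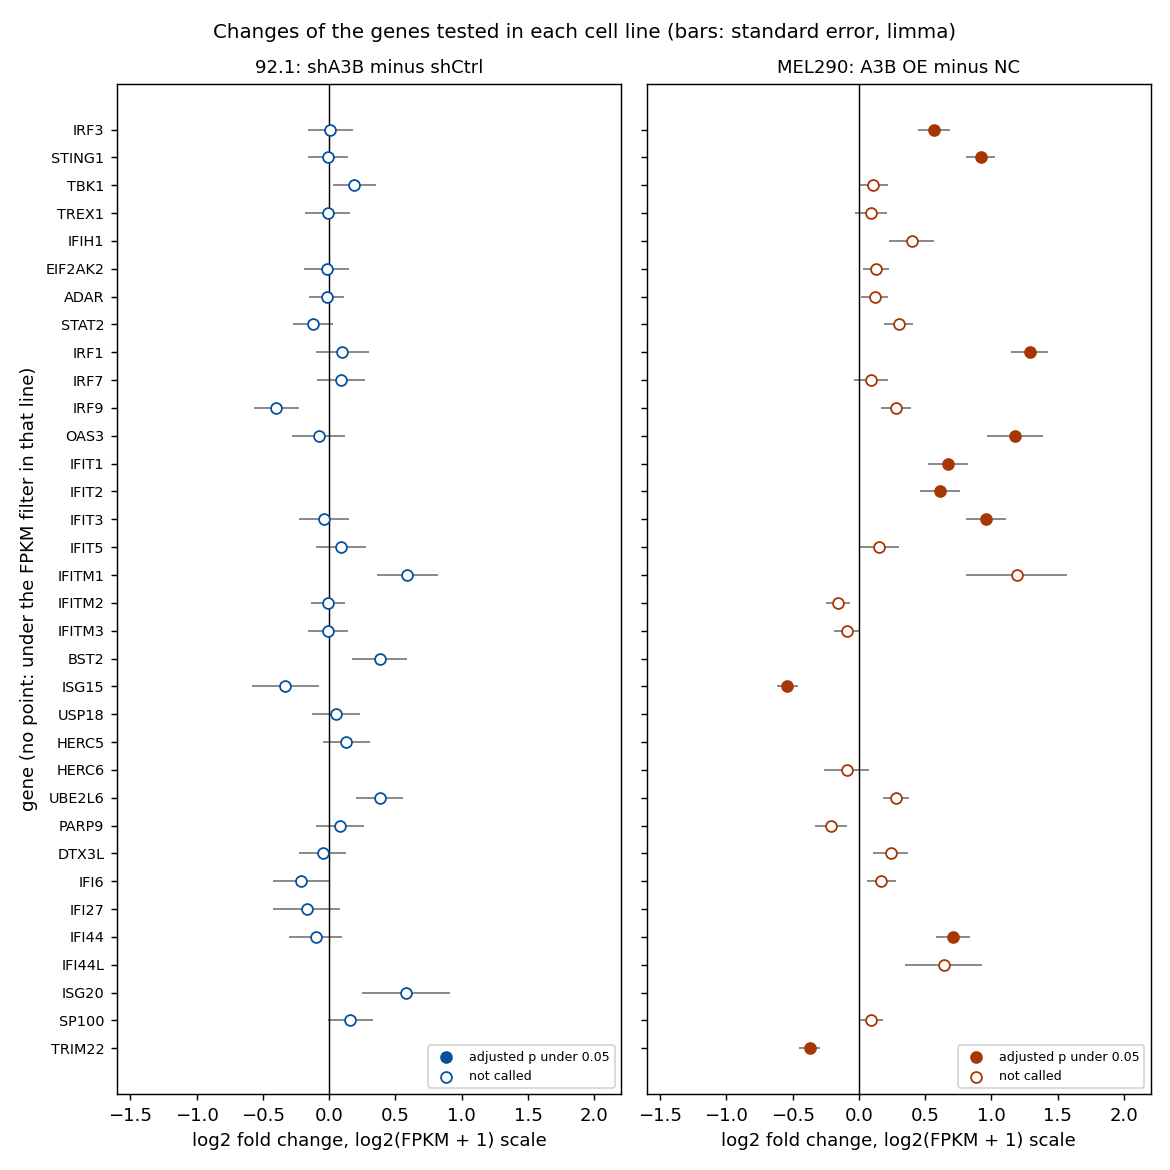
Difference on the log2(FPKM + 1) scale with its standard error for each member tested, for A3B OE minus NC in MEL290 and for shA3B minus shCtrl in 92.1, with filled points for called members. In MEL290 8 filled points lie above 0 and 2 below, and in 92.1 no point is filled.

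Whether the changes differed between the lines was tested in 1 fit of all 8 libraries, as the A3B OE effect minus the shA3B effect. The interventions run in opposite directions and in different lines, so this difference compares them as they were done. A gene that followed A3B alike in both lines would be called too. By limma it was called for 4 of 34 members, 11.8% against 4.4% of 12697 genes. All 4 were in the higher direction, against 3.06% of genes, and 0 in the lower, against 1.35%. At an unadjusted p under 0.05 there were 11 members, 32.4% against 19.9% of genes, of which TRIM22 alone was in the lower direction. The 4 were IRF1 at 1.2 (SE 0.24, adjusted p = 0.036), IFIT3 at 1.0 (SE 0.18, adjusted p = 0.023), STING1 at 0.92 (SE 0.19, adjusted p = 0.039) and IFI44 at 0.81 (SE 0.17, adjusted p = 0.035). OAS3 had the largest value of the 34, 1.26, but with an SE of 0.34 it was not called (adjusted p = 0.086). Each of the 4 calls depends on the libraries used. Without shA3B replicate 1 IRF1 and STING1 passed, without A3B OE replicate 1 IFIT3 alone passed, and without any other single library none of the 4 passed, at adjusted p of 0.057 to 0.12. For ISG15 the difference was -0.21 (SE 0.34), so the fall in MEL290 was not shown to differ from the value in 92.1.

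The last comparison set the control cells side by side, shCtrl minus NC in the same fit. Cell line cannot be told apart here from the control vector or the time of culture. Of 34 members 9 were called higher in 92.1, 26.5% against 40.1% of all genes, and 16 lower, 47.1% against 34.8%. In all 73.5% of members were called against 74.9% of genes, so members differed between the controls about as often as genes at large. The median of the members was -0.2 and that of all genes 0.07. The filter took libraries of either line, so a member could pass through 1 line only. Among those called, TRIM22, HERC6, IFIT1, IFIT2 and IFIH1 passed through MEL290, with at most 0.878 FPKM in 92.1. HERC5, USP18, ISG20 and IFI27 passed through 92.1, with at most 0.817 FPKM in MEL290. BST2 passed only through the shA3B libraries, with at most 0.656 FPKM in the control cells. With 1 FPKM required in every library, 4 of 21 members were called higher and 10 lower.

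Members differed between the control cells in both directions. STING1 was at 40.8 and 35.5 FPKM in shCtrl and at 6.94 and 7.03 in NC (2.29, SE 0.14, adjusted p = 1.3e-06). USP18 was at 3.66 and 4.43 against 0.192 and 0.421 (1.95), and HERC5 at 2.22 and 2.07 against 0.0168 and 0.0283 (1.62). The further members higher in 92.1 were ISG20 (1.27), OAS3 (1.16), IFI27 (0.72), BST2 (0.38), ADAR (0.34) and IFITM2 (0.31). ISG20 ranged from 0.63 without shCtrl replicate 2 to 1.91 without shCtrl replicate 1, and kept its call in both. The smaller differences were less firm. IFI27 lost its call without shCtrl replicate 1 (0.49) or NC replicate 1 (0.56), BST2 without shCtrl replicate 2 (0.32) or NC replicate 2 (0.27) and under quantile scaling (0.28), IFITM2 without shCtrl replicate 2 (0.28) or NC replicate 1 (0.26), and ADAR without NC replicate 2 (0.22).

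TRIM22 differed most, at 0.0818 and 0.0559 FPKM in shCtrl against 48.6 and 50.4 in NC, or -5.56 (SE 0.11, adjusted p = 3e-09). HERC6 was at 0.0176 FPKM and a listed 0 in shCtrl against 3.35 and 2.53 in NC (-1.96). The transcription factors STAT2 and IRF9 were both lower in 92.1, IRF9 at 4.68 and 4.22 against 28.2 and 23.8 (-2.31, SE 0.12, adjusted p = 6.8e-07) and STAT2 at 8.63 and 9.72 against 21.0 and 24.8 (-1.23). ISG15 was lower in 92.1, at 5.26 and 7.88 against 33.8 and 34.3 (-2.23), and so were UBE2L6 (-1.5), SP100 (-1.76), PARP9 (-1.38), DTX3L (-0.83), IFIT5 (-1.18), IFIT2 (-0.74), IFIT1 (-0.65), IFI44 (-1.1), IFIH1 (-0.91), TBK1 (-0.69) and IRF3 (-0.42). The call on IRF3 was marginal (limma adjusted p = 0.046) and was lost without any 1 of the shCtrl or NC libraries (adjusted p of 0.069 to 0.2), with a pseudocount of 0.1 (0.051), with no filter (0.092) and with no trend (0.057). IFIT3, IFI6, IFI44L, IFITM1, IFITM3, IRF1, IRF7, TREX1 and EIF2AK2 were not called between the controls.

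**Figure D4:**
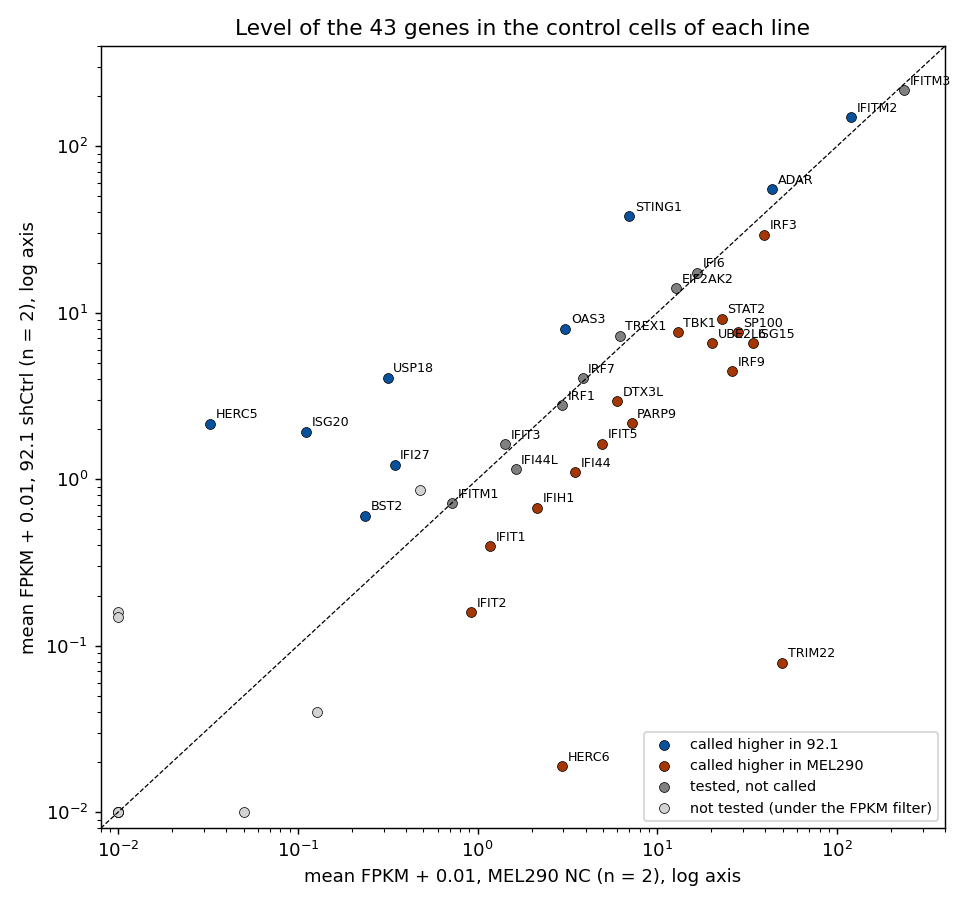
Mean FPKM of each member in MEL290 NC (horizontal axis) and 92.1 shCtrl (vertical axis), each plus a small constant and on a log axis, with the diagonal of equal level. STING1, USP18 and HERC5 lie above the diagonal and TRIM22, ISG15, IRF9 and HERC6 below it, TRIM22 farthest.

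Around the members, the rest of the pathway was described from lists chosen by role, and their counts in MEL290 stand beside 10.3% of all genes tested called higher and 7.49% called lower. Among 11 interferon ligands, IFNB1, IFNG, IFNA2, IFNA5, IFNA8, IFNL1, IFNL2 and IFNL3 were listed at 0 in all 8 libraries, and only IFNA1 and IFNE could be tested, in MEL290. IFNA1 fell, from 2.03 and 2.53 FPKM in NC to 0.49 and 0.783 in A3B OE (-1.01, SE 0.17, adjusted p = 0.014), though it passed the filter on low values only through the NC libraries and reads of its near-identical copy IFNA13 may be counted with it. IFNE was at 12.7 and 12.8 against 10.5 and 11.2 and was not called. Of 10 receptor and kinase genes tested in MEL290, limma called 0, and 1 had an unadjusted p under 0.05. Of 20 other sensing genes tested, 4 were called higher and 0 lower, with 1 lower at an unadjusted p under 0.05. The largest were those of ENPP1, which degrades the cyclic dinucleotide made by cGAS, from 3.57 and 2.59 to 10.0 and 11.5 FPKM (1.54, adjusted p = 0.0038), and of the RNase H2 subunits RNASEH2A (0.77) and RNASEH2B (0.49). Of 31 other interferon-induced genes tested, 7 were called higher and 0 lower, with 4 lower at an unadjusted p under 0.05, and the largest differences were those of PLSCR1 (1.1), IFI30 (0.83) and PARP10 (0.82). Of 9 negative regulators tested, PTPN6 (0.87) and SOCS3 (0.76) rose and PTPN11 (-0.35) fell. In 92.1 limma called 0 genes of these lists, and 0 had an unadjusted p under 0.05.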

How the data were processed

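RNA-seq libraries were made with the NEBNext Ultra kit and sequenced in pairs of reads. According to their methods and processing notes, the authors mapped reads on GRCh38 using STAR and derived FPKM through Cufflinks, and these FPKM values, 1 for each symbol in a library, are what was deposited. The authors' test, Cuffdiff, needs reads and was not run. Counts were not recovered, so depth is a rough estimate from low FPKM values of single-transcript genes and no counting error is given. A value of exactly 0 can be a failed estimate and is described as listed at 0.

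Values were transformed as log2(FPKM + 1) and genes with at least 1 FPKM in 2 of the 4 libraries of a line (2 of 8 for fits of both lines) were kept. Separate fits for the lines used limma 3.58.1 under R 4.3.3 (lmFit, then eBayes with a trend), and p-values were adjusted by Benjamini-Hochberg over all genes tested. The difference between lines and the control cells were tested in 1 fit of 8 libraries. The procedure was tested on simulated data, with changes planted only in genes well above the filter. That test does not cover low members such as IFIT1, IFIT2 and IFIT3. Members and lists were chosen with earlier results of these data known, so their counts are descriptions. All members called in a comparison were named, uncalled members were given where they reached 1 FPKM in 2 libraries, and of each pathway list up to 3 called genes in each direction were named by size of change. With 2 pairs per line, deviations of same-numbered replicates (correlation 0.193 in 92.1 and -0.0295 in MEL290) do not show that numbers pair the libraries, and no pairing was used. Coordinates are from GENCODE release 44, promoters from RefSeq. Alternatives were another pseudocount, other filters, upper quartile and quantile scaling, no trend, removal of GC and length trends, a replicate block, all 8 libraries in 1 fit, and each library left out. Some items of the lists are not reported here.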

Additional observations from a re-analysis of the deposited data

Results flagged for a closer look

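For 4 members the A3B OE effect in MEL290 and the shA3B effect in 92.1 differed by the test of the difference itself, in 1 limma fit of all 8 libraries. As A3B was raised in MEL290 and lowered in 92.1, a gene that followed A3B alike in both lines would be called too. A3B itself was called, at 6.55 (limma adjusted p = 3.2e-06). The 4 calls depend on the libraries used, as given above. For IFIT3 the difference of the log2 changes was 1.0, for IFI44 it was 0.81, for IRF1 1.2 and for STING1 0.92, in each case with A3B OE the higher. Both A3B OE libraries were above both NC libraries for all 4. In 92.1 both shA3B libraries of IFI44 were below both shCtrl libraries (0.995 and 0.897 against 1.04 and 1.14 FPKM), and for IFIT3, IRF1 and STING1 the groups overlapped.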

How the results depend on the processing

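No called member reversed its direction under an alternative, while several lost their calls. Of members not called, 7 in 92.1, 1 in the difference between lines and 3 between the control cells changed sign under at least 1 alternative that kept all libraries. In MEL290, with no filter on low values 3 members were called higher and 1 lower and the median was 0.17, a stricter filter (1 FPKM in every library) gave a median of 0.17, without the trend 1 was called lower, and in the fit of all 8 libraries 0 were. Leaving out a library gave 3 to 9 higher, 0 to 1 lower and a median of 0.16 to 0.29. For the difference between lines, a pseudocount of 0.1 gave 2 calls and a median of 0.37, no filter gave 2 calls, and leaving out a library gave 0 to 2 calls and a median of 0.13 to 0.26. For the control cells, the stricter filter gave 4 higher, 10 lower and a median of -0.13, the pseudocount a median of -0.27, no filter -0.06, and leaving out a library -0.31 to -0.15. In 92.1 the median, -0.01, changed sign, at 0.02 under quantile scaling, 0.01 under upper quartile scaling, 0.03 with GC and length trends removed and -0.04 to 0.14 with a library left out, and with no filter A3B, at -3.47, was no longer called (adjusted p = 0.34). The cause was not tested. With the replicate number as a block, 6 members were called higher in MEL290, IFIT1 and IFIT2 not among them (adjusted p = 0.057 and 0.076), and in the difference IFI44 lost its call (0.056) and OAS3 gained one (0.03), so that 4 members were again called. In 92.1 the block took the genes called from 0 higher and 1 lower to 20 higher and 17 lower, with 0 of the 28 members among them. Same-numbered libraries share only a number, so the block is no measure of a paired effect.

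With a library left out 1 group has a single library, which is assumed to vary like the others. Depth per gene is unknown, so low members such as IFIT1 and IFIT2 carry a counting error that cannot be given.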

Other observations

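The guanylate-binding proteins, interferon-induced GTPases that attack intracellular pathogens, rose with A3B OE in MEL290 for each of the 3 family genes in the lists. GBP1 went from 12.4 and 13 FPKM in NC to 17.3 and 20.0 in A3B OE (0.52, SE 0.11, limma adjusted p = 0.027), GBP2 from 2.48 and 3.0 to 4.41 and 5.66 (0.69, SE 0.16, adjusted p = 0.037) and GBP3 from 12.8 and 11.9 to 20.1 and 20.6 (0.68, SE 0.1, adjusted p = 0.009). In 92.1 none of the 3 passed 0.0549 FPKM. These genes were chosen after their values were seen, and as near relatives they may share reads. Fits with a library left out or with no filter are not given for genes of the lists. Their calls are therefore not shown to be firmer than those of the members. PLSCR1, a membrane protein induced by interferon, was at 7.59 and 7.11 FPKM in NC and 17.4 and 16.4 in A3B OE, and at 17.3 to 18.5 in the 92.1 libraries. IFI16, a nuclear DNA sensor, was at 24.7 to 26.3 FPKM in the MEL290 libraries and at 0.743 to 1.51 in those of 92.1, and was not called within either line.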
